A study of Mus musculus with 6 samples.

Results

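The genes described here belong to the integrated stress response that runs through the transcription factor ATF4. They are 10 genes chosen by name: the transcription factor genes *Atf4*, *Atf5* and *Ddit3*, the stress effector genes *Ddit4*, *Trib3* and *Chac1*, and the amino acid enzyme genes *Asns*, *Psat1*, *Phgdh* and *Shmt2*. All 10 were found among the 55367 gene names of the count table, and all 10 passed the filter on low counts, which left 14916 genes to test. Their counts ran from 424 to 12418 in a library. These members and the lists below were chosen with earlier results of these data known. The shares of all genes set beside them are therefore descriptions.

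RNA was sequenced from primary keratinocytes, epidermal cells that were isolated from the skin of pups 2 days old and grown without immortalization on collagen in a medium low in calcium. The mice were *Ppp1r13l* flox/flox;Cre+ERT on a background of C57BL/6 mixed with 129/Sv, in which exon 8 of the gene for iASPP lies between loxP sites and a Cre-ERT recombinase at the ubiquitously expressed *Rosa26* locus removes it when tamoxifen is added. Each of the 3 batches in the labels has an iASPP-KO culture and an iASPP-WT culture of the same genotype, so each condition had 3 libraries. The medium was changed at 24 h, to one with tamoxifen for iASPP-KO and without it for iASPP-WT. In the study's methods the cells were then kept for days, so 24 h is not the length of exposure. Whether both cultures of a batch came from the same cell preparation is not stated. The concentration of tamoxifen is 1 mM in the labels and 1 μM in the study's methods, and because the control cultures had none of it, effects of the drug and of the deletion cannot be told apart. The comparison asks how the RNA of these stress genes differed between the iASPP-KO and the iASPP-WT culture of a batch. Ribosomal RNA was depleted and single reads of 42 bases were taken. The totals of the iASPP-KO libraries of batches 1, 2 and 3 were 24544822, 23556669 and 22136525 counts. Those of the iASPP-WT libraries were 21353368, 25157117 and 20202517 counts. At this depth 3 counts, the upper limit that a count of 0 allows, correspond to 0.119 to 0.148 CPM (counts per 1000000), a floor that covers counting error only.

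In the integrated stress response, kinases that sense unfolded protein, amino acid shortage, viral RNA or heme shortage phosphorylate the translation factor eIF2α, which lowers protein synthesis in general while upstream open reading frames let the *Atf4* messenger RNA be translated more. ATF4 protein then binds DNA with partners of the basic leucine zipper (bZIP) family and switches on genes for amino acid transport and synthesis, for redox balance and, under lasting stress, for growth arrest and cell death. Because this control acts largely on translation, the level of *Atf4* RNA is not a measure of ATF4 protein, which was not measured here.

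*Ppp1r13l*, the gene that encodes the p53- and p63-binding protein iASPP (chr7:19359749-19378533, GRCm38), was read first as a check of the labels. Its level was 14.3, 17.7 and 5.91 CPM in the iASPP-KO libraries of batches 1, 2 and 3, and 32.7, 45.1 and 21.0 CPM in the iASPP-WT libraries. Here and below, CPM of a gene is scaled by the trimmed mean of M-values (TMM). Every iASPP-KO library was below every iASPP-WT library. The log2 fold change of iASPP-KO over iASPP-WT, fitted by edgeR with batch in the model, was -1.45 (SE 0.18, 3 libraries per condition, lower in 3 of 3 batches), with an adjusted p of 0.00296 in edgeR's quasi-likelihood test after Benjamini-Hochberg correction over all tested genes. The within-batch log2 differences were -1.19, -1.34 and -1.82. These counts cover all exons of the gene, those outside the floxed exon 8 included, so they are no measure of the deleted share. Each p-value given here sets the difference between conditions against the variation left between these cultures once batch is in the model. That fit has 2 residual degrees of freedom.

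The identity of the cells was checked on markers, as summed CPM of the library totals in the order of batches 1, 2 and 3. The 9 keratinocyte markers summed to 27089, 25852 and 32015 in iASPP-KO and to 33183, 27374 and 31881 in iASPP-WT, and all 9 were detected. *Krt14*, a keratin of basal keratinocytes, was the most abundant of them, with a mean of 16090 CPM. The libraries of batch 3 stood apart. In them the 7 fibroblast markers summed to 488 in iASPP-KO and 751 in iASPP-WT, against 34.0 and 49.0 in the iASPP-KO and 34.1 and 43.9 in the iASPP-WT libraries of batches 1 and 2. All 7 fibroblast markers were detected. The collagen gene *Col1a2* had the highest mean over the 6 libraries. The growth factor receptor gene *Pdgfra* was above it in the iASPP-KO libraries of batches 1 and 2, and the proteoglycan gene *Dcn* in that of batch 2. Of the 7, 2 passed: the collagen genes *Col1a2* and *Col3a1* were lower in iASPP-KO (log2 fold change -0.55 and -0.87, adjusted p of 0.0428 and 0.0269 in edgeR's quasi-likelihood test after Benjamini-Hochberg correction). *Col1a2* did not pass without batch 1 (-0.58), batch 2 (-0.46) or batch 3 (-0.59), and *Col3a1* did not without batch 2 (-0.61) or batch 3 (-0.96). The markers did not share a direction: *Pdgfra* had a log2 fold change of 0.81, with within-batch differences of 1.29, 1.60 and -0.42, and *Dcn*, the gene of the matrix proteoglycan decorin, had -0.017, which turned positive without batch 1 (0.25) and with no batch block (0.026). Neither passed, but *Pdgfra* passed without batch 3 (1.46) and with no filter on low counts (0.81). In bulk RNA, fewer cells of a type and less RNA per cell cannot be told apart. Values of the members are therefore given by batch, and the calls with and without batch 3.

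Markers of the other cell types had sums far below those of keratinocytes. The 5 melanocyte markers summed to 758, 363 and 1057 CPM in iASPP-KO and to 1054, 319 and 1084 CPM in iASPP-WT, and all 5 were detected. The pigment granule gene *Pmel* had the highest mean over the 6 libraries, but the pigment enzyme gene *Dct* was above it in both libraries of batch 3 and *Tyrp1*, another pigment enzyme gene, in the iASPP-KO libraries of batches 2 and 3. The 7 leukocyte markers summed to 59.2, 66.6 and 86.0 CPM in iASPP-KO and to 43.6, 56.9 and 70.7 CPM in iASPP-WT, with the T cell gene *Cd3e* at 0 in all 6 libraries. The macrophage gene *Cd68* had the highest mean of them, but in batch 3 the lysozyme gene *Lyz2* was above it (59.1 against 10.9 CPM in iASPP-KO and 49.6 against 8.95 CPM in iASPP-WT, scaled by TMM). Of the leukocyte markers, 1 of 5 tested was higher in iASPP-KO, the macrophage growth factor receptor gene *Csf1r* (log2 fold change 1.11, adjusted p of 0.0206 in edgeR's quasi-likelihood test after Benjamini-Hochberg correction), which did not pass without batch 1 (1.16) or batch 2 (1.22). The 4 endothelial markers, with the highest mean for the adhesion gene *Pecam1*, summed to at most 12.9 CPM in a library. Another of them, *Kdr*, was above *Pecam1* in the iASPP-KO libraries of batches 1 and 2. The 3 mast cell markers, with the highest mean for the receptor gene *Kit*, summed to at most 6.79 CPM. None of these 7 markers was at 0 in all libraries. Mitochondrial genome genes took 0.868% to 1.45% of the counts. The part of these other cells in the values of the members was not tested.

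Among the 10 members, 3 were higher in iASPP-KO: *Ddit3*, *Ddit4* and *Chac1*, each by a fold change between 1.78 and 1.91. Of all tested genes, 323 were called higher (2.17%) and 291 lower (1.95%) by the same edgeR quasi-likelihood test at an adjusted p under 0.05, and with 1 batch left out these counts ran from 169 to 793 and from 117 to 662. No member was called lower: edgeR called 0, with 1 member (*Shmt2*) lower at an unadjusted p under 0.05, and DESeq2 called 0. At an unadjusted p under 0.05, 5 members were higher, beside 8.66% of all genes higher and 8.09% lower. DESeq2 called 4 members higher, the same 3 and *Trib3*, beside 3.91% of its tested genes higher and 3.31% lower. With library totals in place of TMM, 295 genes were called higher and 455 lower, with the same 3 members called. Without batch 3, 4 members were called, *Atf5* beside *Ddit3*, *Ddit4* and *Chac1*, and without batch 2 there were 2, since *Chac1* no longer passed.

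In all 3 batches 5 of the 10 members were higher in iASPP-KO (*Atf5*, *Ddit3*, *Ddit4*, *Trib3* and *Chac1*), beside 19.5% of all tested genes, and 2 were lower (*Asns* and *Shmt2*), beside 19.7%. On library totals *Phgdh* joined these, so that 3 were lower in all batches and 5 were higher. Every iASPP-KO library was above every iASPP-WT library for 2 members, *Ddit3* and *Ddit4*, beside 5.26% of all genes, and below for 1, *Shmt2*, beside 5.46%. On library totals the conditions stayed apart for 1 member, *Ddit4*. The median log2 fold change was 0.21 over the 10 members (0.38, 0.057 and 0.24 within batches 1, 2 and 3) and 0.0057 over all tested genes. It was 0.39 over the 3 transcription factor genes, 0.84 over the 3 stress effector genes and -0.21 over the 4 amino acid enzyme genes. Whether these roles differ from each other was not tested.

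**Figure D1:**
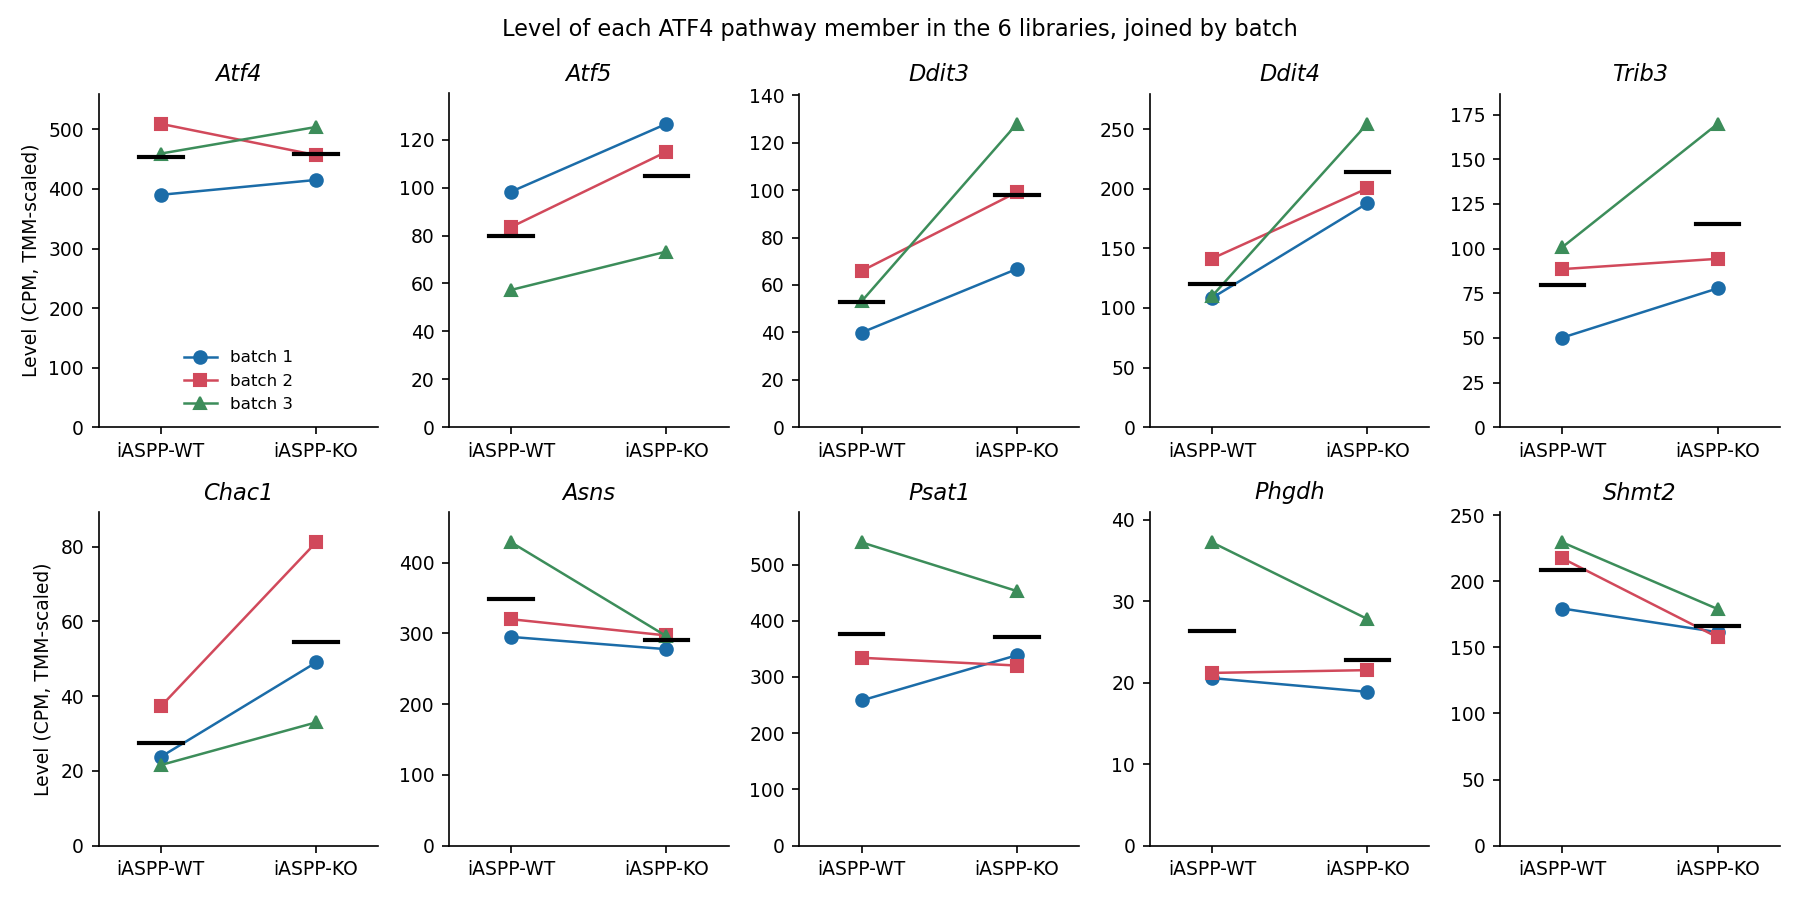
Level of each of the 10 members in CPM scaled by TMM (vertical axes, each from 0) in the iASPP-WT and iASPP-KO libraries, with a point for each library, a line joining the libraries of a batch and a black bar at the mean of 3 libraries. *Ddit3* lies between 66.8 and 128 in iASPP-KO and between 39.9 and 65.9 in iASPP-WT, whereas the points of *Atf4* lie between 390 and 509 with the conditions mixed.

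*Atf4*, the gene of the central transcription factor (chr15:80255184-80257541), was at 415, 457 and 504 CPM in the iASPP-KO libraries of batches 1, 2 and 3 and at 390, 509 and 459 CPM in the iASPP-WT libraries. The conditions overlapped, and the iASPP-WT library of batch 2 was the highest of the 6. On library totals the iASPP-KO library of batch 3 was the highest (536 CPM), with the iASPP-WT library of batch 2 at 494 CPM. The log2 fold change of *Atf4* was 0.022 with a 95% interval from -0.23 to 0.27. Its sign turned with library totals (-0.054), without batch 1 (-0.0077) and without batch 3 (-0.034). The interval corresponds to a fold between 0.854 and 1.21, and the adjusted p was 0.952 in edgeR's quasi-likelihood test after Benjamini-Hochberg correction. Within batches the log2 differences were 0.090, -0.16 and 0.13.

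*Atf5* (chr7:44812256-44816658), which encodes a bZIP factor whose translation is also controlled through eIF2α, was at 127, 115 and 73.3 CPM in iASPP-KO and at 98.3, 83.6 and 57.3 CPM in iASPP-WT. The iASPP-KO library was the higher in each batch, but the conditions overlapped because both libraries of batch 3 were low. The log2 fold change was 0.39 (SE 0.11), with within-batch values of 0.36, 0.46 and 0.35. It did not pass, with an adjusted p of 0.0882 in edgeR's quasi-likelihood test after Benjamini-Hochberg correction, and it passed in the fit without batch 3, at 0.41.

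*Ddit3* (chr10:127290774-127296288) encodes CHOP, a bZIP factor that ATF4 induces and that promotes cell death under lasting stress. Its level was 66.8, 99.2 and 128 CPM in iASPP-KO and 39.9, 65.9 and 53.1 CPM in iASPP-WT. The conditions did not overlap, although the lowest iASPP-KO library (batch 1) and the highest iASPP-WT library (batch 2) were close, and on library totals they crossed (61.1 and 63.9 CPM). *Ddit3* rose by a log2 fold change of 0.87 (SE 0.15), a fold of 1.82, higher in 3 of 3 batches, with an adjusted p of 0.0119 in edgeR's quasi-likelihood test after Benjamini-Hochberg correction. Batch 3 had the largest within-batch difference, 1.27, beside 0.74 in batch 1 and 0.59 in batch 2, and the log2 fold change without batch 3 was 0.66 and still passed.

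Of the stress effectors, *Ddit4* (chr10:59949669-59951834) encodes REDD1, an inhibitor of the growth kinase mTORC1. It was at 188, 200 and 254 CPM in iASPP-KO and at 108, 141 and 110 CPM in iASPP-WT. All iASPP-KO libraries were above all iASPP-WT libraries, with batch 3 the highest in iASPP-KO. *Ddit4* rose by a log2 fold change of 0.84 (SE 0.14), a fold of 1.78, in 3 of 3 batches, with an adjusted p of 0.0119 in edgeR's quasi-likelihood test after Benjamini-Hochberg correction. Its within-batch differences were 0.79, 0.50 and 1.21, and without batch 3 the log2 fold change was 0.65 and still passed.

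*Chac1* (chr2:119351229-119354381) encodes an enzyme that breaks down glutathione, the main thiol of the cell. It stood at 49.0, 81.1 and 33.0 CPM in iASPP-KO and at 23.8, 37.2 and 21.6 CPM in iASPP-WT. Each iASPP-KO library was above the iASPP-WT library of its batch, but the iASPP-KO library of batch 3 was below the iASPP-WT library of batch 2, so the conditions overlapped. With a log2 fold change of 0.93 (SE 0.15), a fold of 1.91, *Chac1* rose the most of the 10 members in this fit, with an adjusted p of 0.00955 in edgeR's quasi-likelihood test after Benjamini-Hochberg correction. The within-batch differences were 1.04, 1.12 and 0.61. Without batch 2 the log2 fold change was 0.83 and no longer passed, and without batch 3 it was 1.08 and passed.

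*Trib3* (chr2:152337422-152344032) encodes a pseudokinase that is induced by ATF4 and CHOP and that represses them in turn. It was at 77.7, 94.3 and 170 CPM in iASPP-KO and at 50.1, 88.5 and 101 CPM in iASPP-WT. The conditions overlapped, and the difference within batch 2 was small (0.091) beside those of batch 1 (0.63) and batch 3 (0.75). The log2 fold change of 0.49 (SE 0.14) had an adjusted p of 0.0967 in edgeR's quasi-likelihood test after Benjamini-Hochberg correction and so did not pass, whereas DESeq2 and the edgeR fit with no filter on low counts called *Trib3* higher.

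**Figure D2:**
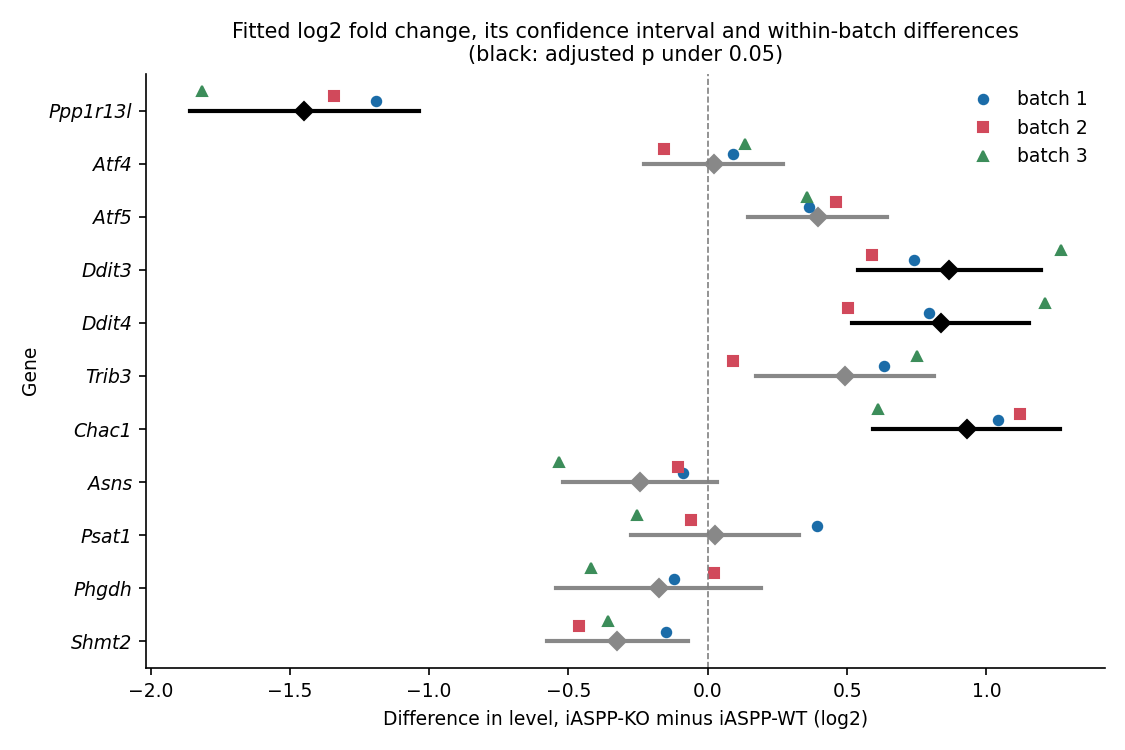
Log2 fold change of iASPP-KO over iASPP-WT (horizontal axis) for *Ppp1r13l* and the 10 members, with the fitted value as a diamond, its 95% interval as a line, and the difference within each batch as a small symbol above it; black marks an adjusted p under 0.05 in edgeR's quasi-likelihood test. *Ddit3*, *Ddit4* and *Chac1* lie at 0.87, 0.84 and 0.93, *Ppp1r13l* at -1.45, and the 4 enzyme genes between -0.32 and 0.025, of which *Psat1* turns negative (-0.050) with library totals, as does *Atf4*.

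None of the 4 amino acid enzyme genes passed: edgeR called 0 of 4 in either direction, with 1 of 4 at an unadjusted p under 0.05, and DESeq2 called 0. *Asns* (chr6:7675169-7693254) encodes asparagine synthetase, whose RNA is often read as a marker of ATF4 activity. It was at 278, 297 and 296 CPM in iASPP-KO and at 295, 320 and 429 CPM in iASPP-WT. The iASPP-KO library was the lower in each batch, by the widest margin in batch 3 (log2 difference -0.53, beside -0.087 and -0.11). Its log2 fold change was -0.24, with a 95% interval from -0.52 to 0.032, and with 1 batch left out it ran from -0.32 to -0.098.

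*Psat1*, *Phgdh* and *Shmt2* act in the synthesis of serine and in its conversion to glycine. *Phgdh* (chr3:98313170-98339990) encodes the enzyme of the entry step, from a product of glycolysis, and was at 18.9, 21.5 and 27.8 CPM in iASPP-KO and at 20.6, 21.2 and 37.2 CPM in iASPP-WT. *Psat1* (chr19:15904678-15947337) encodes the aminotransferase of the next step and was at 339, 320 and 453 CPM in iASPP-KO and at 258, 334 and 540 CPM in iASPP-WT. Both overlapped between conditions. The log2 fold change of *Phgdh* was -0.18 (95% interval -0.54 to 0.19), with within-batch differences of -0.12, 0.023 and -0.42, and it ran from -0.27 to -0.050 with 1 batch left out. That of *Psat1* was 0.025 (95% interval -0.28 to 0.33), which turned to -0.050 with library totals, to -0.15 without batch 1 and to -0.026 without batch in the model. The batches of *Psat1* differed in sign, with 0.39, -0.061 and -0.25. For *Phgdh*, 68.0% of the windows of read length in its longest transcript also occur in 21 other genes, most of them gene models without a given name, and reads placed in several genes were not counted, so its level is uncertain.

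*Shmt2* (chr10:127517123-127522444) encodes the mitochondrial enzyme that splits serine into glycine and a one-carbon unit. It was at 161, 158 and 179 CPM in iASPP-KO and at 179, 217 and 229 CPM in iASPP-WT. No iASPP-KO library reached the lowest iASPP-WT library, by a margin of under 1 CPM between batch 3 in iASPP-KO and batch 1 in iASPP-WT, and on library totals these libraries crossed (190.2 and 179 CPM). The log2 fold change was -0.32 (SE 0.11), lower in 3 of 3 batches, and did not pass, with an adjusted p of 0.174 in edgeR's quasi-likelihood test after Benjamini-Hochberg correction. Within batches it was -0.15, -0.46 and -0.36. In *Shmt2* 2.80% and in *Psat1* 1.83% of the windows of read length occur in 1 other gene, and in the 7 members other than these and *Phgdh* none do.

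**Figure D3:**
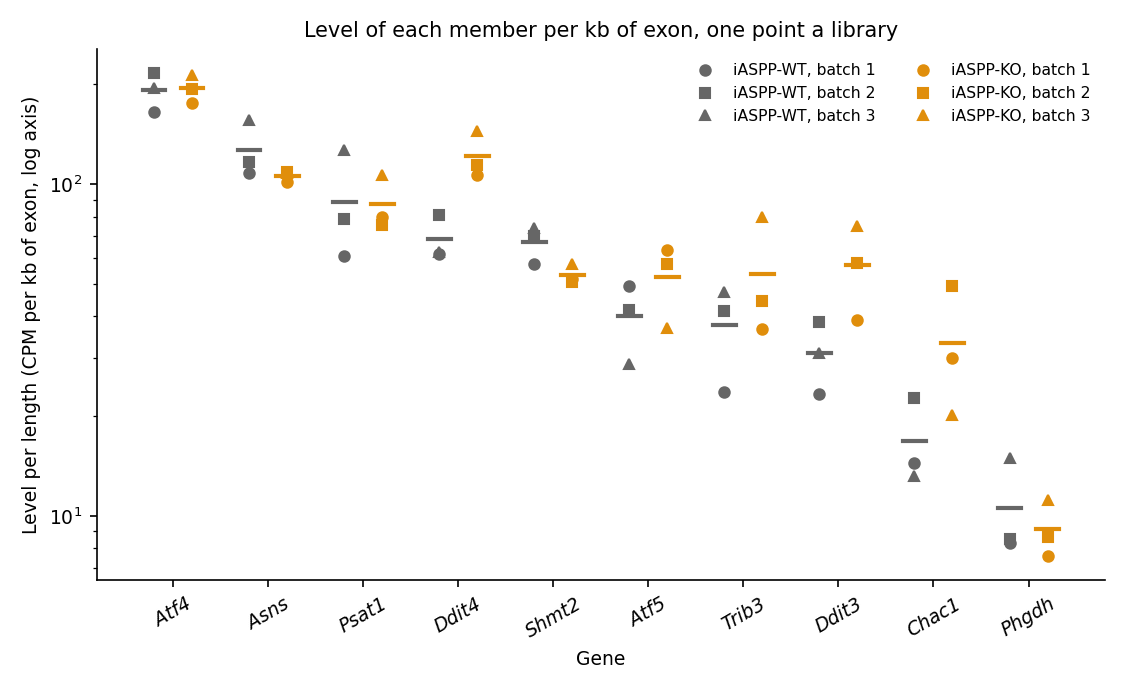
Level of each member per length, in CPM per kb of exon on a log axis, with a point for each library and a bar at the mean of 3 libraries for iASPP-WT (grey) and iASPP-KO (orange), ordered by the iASPP-WT mean. *Atf4* lies highest, at means of 192 and 195, and *Phgdh* lowest, at 10.6 and 9.15, a place that is uncertain because most of its sequence is shared with other genes and reads with several placements were not counted.

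The members differed widely in level per length in iASPP-WT. In CPM per kb of exon, *Atf4* had the highest mean, 192 ± 25.4 (SD, n = 3). Its mean over both conditions stood above that of 98.5% of all tested genes. *Asns* followed at 127 ± 26.0, below *Atf4* in every library. Then came *Psat1* at 88.7 ± 34.2, *Ddit4* at 68.3 ± 10.6 and *Shmt2* at 67.1 ± 8.40, whose ranges overlapped one another, and that of *Psat1* also overlapped that of *Asns*. *Atf5* (40.0 ± 10.4), *Trib3* (37.6 ± 12.4) and *Ddit3* (30.9 ± 7.59) formed a lower group whose ranges overlapped one another and lay below that of *Shmt2*. *Chac1* followed at 16.8 ± 5.19, below the range of *Ddit3*, and *Phgdh* at 10.6 ± 3.80 overlapped *Chac1*. The place of *Phgdh* is uncertain, since the full exon length was used while reads in its shared sequence were not counted. For other members too the length of all exons exceeds that of the longest transcript, as for *Asns* (2735 against 2016 bases) and *Ddit3* (1713 against 969). For *Ddit4* both are 1755 bases, so the order of these members depends on the length used. In iASPP-KO the mean of *Ddit4*, 122 ± 20.2 CPM per kb, came after that of *Atf4* (195 ± 18.9) and before that of *Asns* (106 ± 3.99), with ranges of *Ddit4* and *Asns* that overlapped. *Ddit3* (57.2 ± 17.9), *Trib3* (53.6 ± 23.1), *Shmt2* (53.4 ± 3.66) and *Atf5* (52.7 ± 14.1) overlapped one another there, *Chac1* was at 33.2 ± 15.0, and *Psat1* (87.1 ± 16.9) and *Phgdh* (9.15 ± 1.85) had means near those in iASPP-WT.

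Upstream of ATF4, 12 genes for the eIF2α kinases, the eIF2 and eIF2B subunits and the phosphatase subunits were tested. Of these, beside 2.17% of all tested genes, 1 was higher. It was *Ppp1r15a*, which encodes GADD34, the stress-induced subunit that lets eIF2α be dephosphorylated. It was at 65.0, 87.9 and 76.1 CPM in iASPP-KO and at 49.3, 60.4 and 51.1 CPM in iASPP-WT, without overlap. Its log2 fold change was 0.50 (SE 0.12, higher in 3 of 3 batches), with an adjusted p of 0.0458 in edgeR's quasi-likelihood test after Benjamini-Hochberg correction. It did not pass without batch 1 (0.56), without batch 2 (0.49) or with library totals (0.43). None of the 12 was called lower by edgeR or by DESeq2, with 0 lower at an unadjusted p under 0.05. The kinase genes *Eif2ak3* (PERK, the sensor of unfolded protein) and *Eif2ak4* (GCN2, the sensor of amino acid shortage) had log2 fold changes of -0.25 and -0.28 and did not pass. With 1 batch left out they ran from -0.36 to -0.056 and from -0.49 to -0.17. The median over the 12 genes was 0.024, and 0.035, 0.0077 and -0.10 within batches.

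Of 13 tested genes for bZIP partners and neighbours of ATF4, 3 were higher, beside 2.17% of all tested genes. The median log2 fold change was 0.37 (0.35, 0.40 and 0.37 within batches). *Nupr1*, a gene for a small stress-induced chromatin protein, was at 76.0, 81.3 and 93.6 CPM in iASPP-KO and at 41.9, 47.3 and 45.1 CPM in iASPP-WT, with a wide gap between the conditions. It rose by a log2 fold change of 0.90 (SE 0.12), a fold of 1.86, with an adjusted p of 0.00433 in edgeR's quasi-likelihood test after Benjamini-Hochberg correction, and it passed without any one of the batches. *Cebpb*, which encodes a partner of ATF4 on DNA, and *Junb*, which encodes an AP1 subunit, had log2 fold changes of 0.54 and 0.50. Both passed (adjusted p of 0.0389 and 0.0296 in the same edgeR quasi-likelihood test), higher in 3 of 3 batches, but neither passed without batch 1 (0.48 and 0.45) or without batch 2 (0.62 and 0.54), and *Cebpb* did not with library totals (0.46). Without batch 3, 7 of the list were called higher, beside 793 of 15261 tested genes. Without batch 1 or batch 2, 1 of the list was, beside 169 of 15437 and 174 of 15236 tested genes. None was called lower by edgeR in this fit, with 1 lower at an unadjusted p under 0.05, the AP1 gene *Jun* (log2 fold change -0.55, and -0.75 to -0.27 with 1 batch left out), which DESeq2 called lower, as did edgeR with no filter on low counts (-0.54). That fit called 4 of the list higher. *Atf3*, an ATF4-induced repressor gene, had 0.45 and passed only in the fit without batch 3 (0.58). *Batf3* had too few counts to test.

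Of 20 other tested ATF4 target genes for transport, redox balance and secreted stress signals, 2 were higher, beside 2.17% of all tested genes. The median was 0.19, and within batches 1, 2 and 3 it was 0.17, 0.033 and 0.76. Of the 20, 17 were positive, beside 7548 of all 14916 genes, and 9 were higher in all 3 batches, beside 19.5% of all genes. *Slc7a11* encodes the cystine and glutamate exchanger that supplies cysteine for glutathione. Its level was 830, 1066 and 225 CPM in iASPP-KO and 359, 599 and 91.9 CPM in iASPP-WT. Batch 3 was the lowest in both conditions, so the conditions overlapped, while the iASPP-KO library was the higher in every batch, by log2 differences of 1.21, 0.83 and 1.29. *Slc7a11* rose by a log2 fold change of 1.11 (SE 0.12), a fold of 2.16, with an adjusted p of 0.00164 in edgeR's quasi-likelihood test after Benjamini-Hochberg correction. *Slc6a9*, a glycine transporter gene, was at 111, 129 and 112 CPM in iASPP-KO and at 67.9, 95.0 and 48.7 CPM in iASPP-WT. It rose by 0.78 (SE 0.15), with an adjusted p of 0.0198 in the same edgeR quasi-likelihood test, higher in 3 of 3 batches. Both passed without batch 3, at 1.02 and 0.57.

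DESeq2 called 5 genes of that list higher, *Slc3a2*, *Slc1a4* and *Gdf15* beside these, and the list held 8 genes higher at an unadjusted p under 0.05 in edgeR. *Slc3a2*, which encodes the heavy chain that pairs with *Slc7a11*, had a log2 fold change of 0.43 and passed without batch 3 (0.47). *Slc1a4*, a gene for a transporter of neutral amino acids, had 0.58 and passed without batch 1 (0.83), and without batch 3 it had 0.35. *Gdf15*, the gene of a secreted stress hormone, had few counts: 73, 103 and 31 in iASPP-KO and 16, 26 and 0 in iASPP-WT. All iASPP-KO libraries were above all iASPP-WT libraries, and the fitted log2 fold change of 2.77 had an adjusted p of 0.104 in edgeR's quasi-likelihood test after Benjamini-Hochberg correction, and passed without batch 3 (2.11). None of the 20 was called lower by edgeR in this fit or by DESeq2, with 1 lower at an unadjusted p under 0.05, *Cbs*, an enzyme gene of cysteine synthesis with a log2 fold change of -2.05. Its counts were low, 28, 2 and 53 in iASPP-KO and 82, 79 and 82 in iASPP-WT, and without batch 2 the value was -1.14 and did not pass. Without batch 3, 4 of the list were called higher and 2 lower, *Cbs* among the latter (-2.93), beside 793 and 662 of 15261 tested genes. With no filter on low counts, 7 were called higher and 1 lower, *Cbs* (-2.06). *Sesn2*, a leucine sensor gene that ATF4 induces, had 0.37 and did not pass, and *Fgf21* and *Slc43a1* had too few counts to test. Whether ATF4 or another factor acted on the genes of this list was not tested.

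**Figure D4:**
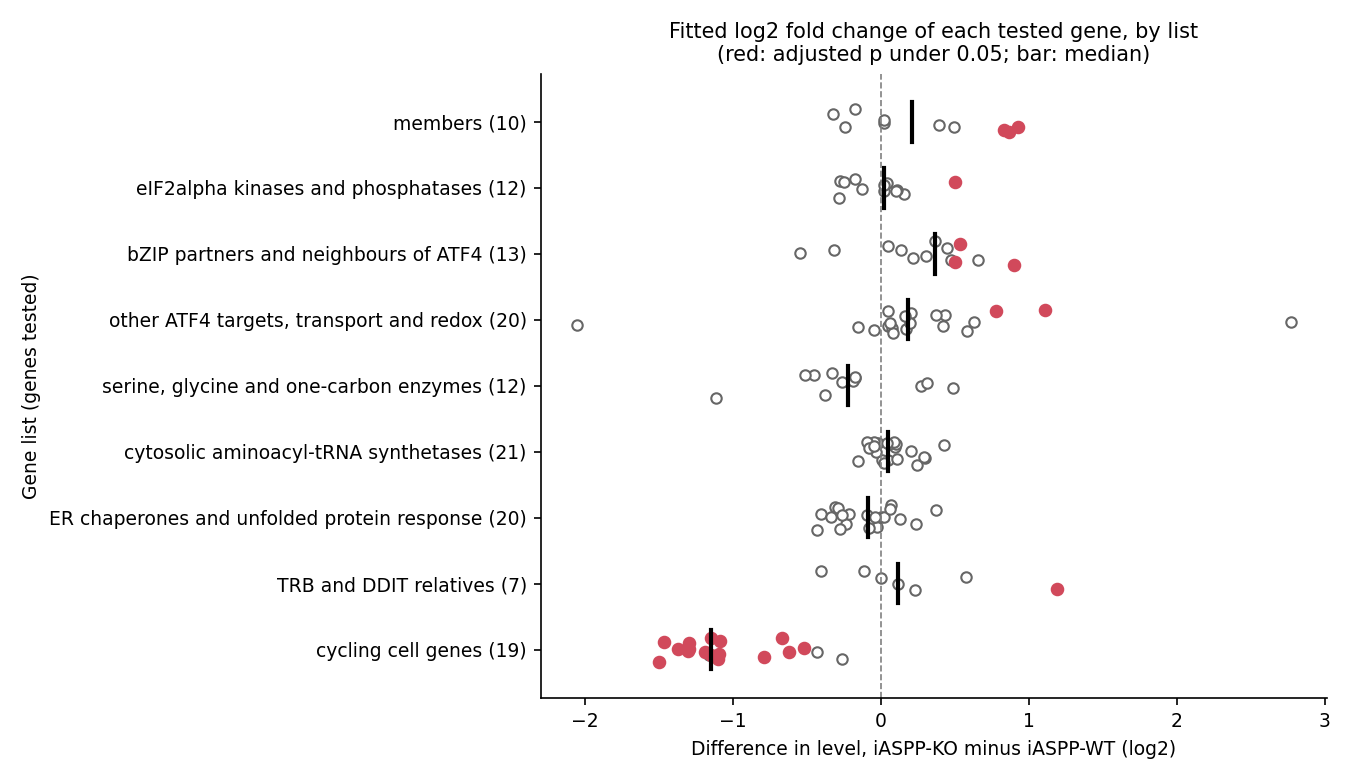
Log2 fold change of iASPP-KO over iASPP-WT (horizontal axis) of each tested gene of the members and of 8 lists, with the number tested beside each name, a point for each gene, red for an adjusted p under 0.05 in edgeR's quasi-likelihood test and a black bar at the median. The medians run from -1.15 for 19 cycling cell genes to 0.37 for 13 bZIP partners and neighbours, and red points on the positive side number 3 among the members, 1 among the eIF2α genes, 3 among the bZIP partners and neighbours, 2 among the other targets and 1 among the relatives.

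The wider serine and one-carbon pathway had a median of -0.22 (-0.30, -0.11 and -0.45 within batches) over 12 tested enzyme genes. Of the 12, 9 were negative, beside 7368 of all 14916 genes. In all 3 batches 7 were lower, beside 19.7% of all tested genes. None of the 12 passed: edgeR called 0 higher and 0 lower, with 1 higher and 2 lower at an unadjusted p under 0.05, and DESeq2 called 0. Without batch 3, 1 was called higher, beside 793 of 15261 tested genes. *Psph*, whose enzyme completes the serine pathway after *Psat1*, had a log2 fold change of -0.26, which ran from -0.45 to -0.074 with 1 batch left out. *Mthfd1l* and *Mthfd2*, which encode mitochondrial folate enzymes, had -0.38 and 0.27, and *Mthfd1l* passed only with library totals (-0.46), while *Mthfd2* turned to -0.020 without batch 3.

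The cytosolic aminoacyl-tRNA synthetases charge tRNAs with amino acids, and many of their genes are ATF4 targets. Over 21 tested genes, with the tRNA exporter gene *Xpot* among them, the median was 0.046 (0.053, -0.035 and 0.15 within batches). edgeR called 0 higher and 0 lower, with 2 higher and 0 lower at an unadjusted p under 0.05. DESeq2 called 1 higher, the cysteinyl-tRNA synthetase gene *Cars*, as did edgeR with no filter on low counts. The log2 fold change of *Cars* was 0.43, and 0.21 to 0.57 with 1 batch left out. The chaperones and sensors of the endoplasmic reticulum belong to the unfolded protein response, whose branches other than PERK do not run through ATF4. Over 20 tested genes of this kind the median was -0.087, and it differed in sign between batches (0.020, -0.086 and -0.32). Of the 20, 14 were negative, beside 7368 of all genes. edgeR called 0 higher and 0 lower, with 1 higher and 5 lower at an unadjusted p under 0.05, and DESeq2 called 0 higher and 1 lower, the disulfide isomerase gene *Pdia6* (-0.40). Without batch 3, 1 was called higher and 1 lower, the latter *Pdia6* (-0.36). edgeR also called *Pdia6* lower with library totals (-0.48) and with no filter on low counts (-0.40), a fit that called 2 of the list lower. *Xbp1*, the gene of a factor activated by splicing of its RNA, had -0.26, with batches that differed in sign (0.11, -0.20 and -0.69), and did not pass. With 1 batch left out it ran from -0.44 to -0.047.

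Among 7 tested relatives of the members, 1 was higher, beside 2.17% of all tested genes. The median was 0.12, with -0.11, 0.10 and 0.021 within batches. The gene called was *Ddit4l*, a paralog of *Ddit4* that encodes REDD2, with 9.04, 13.6 and 13.4 CPM in iASPP-KO and 3.19, 6.97 and 6.06 CPM in iASPP-WT. The conditions did not overlap, and the log2 fold change of 1.19 (SE 0.25, higher in 3 of 3 batches) had an adjusted p of 0.0269 in edgeR's quasi-likelihood test after Benjamini-Hochberg correction. Without batch 1 (1.05) and without batch 2 (1.32) it did not pass. *Chac2*, the paralog of *Chac1*, had 0.12, and the *Trib3* paralogs *Trib1* and *Trib2* had 0.23 and 0.57. None of the 3 passed, and *Trib1* turned to -0.026 without batch 1 and *Trib2* to -0.24 without batch 2. edgeR called 0 lower, with 1 lower at an unadjusted p under 0.05, *Creb1* (-0.41), the gene of a cyclic AMP response factor, and DESeq2 called 0 lower. Without batch 3 (-0.50) and with library totals (-0.48) *Creb1* was called lower. *Creb3l1* had too few counts to test.

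The 5 genes most like *Atf4* over the 6 libraries, among 8774 other tested genes with a mean of at least 10 CPM, were *Cops8* (r = 0.981), a subunit gene of the COP9 signalosome, *Gnpnat1* (0.981), an enzyme gene of amino sugar synthesis, the cytokine gene *Mif* (0.979), *Chac2* (0.971) and *Dpy30* (0.967), a subunit gene of histone methyltransferases. These are Pearson correlations of log2 CPM, given as a description, and the 6 libraries share 3 batches. Of the windows of read length in *Mif* 41.3%, and in *Gnpnat1* 10.2%, also occur in other genes, so the levels of these genes are uncertain, as for *Phgdh*. The log2 fold changes of the 5 lay between 0.0024 and 0.12, and none passed. With library totals *Cops8* (-0.058), *Gnpnat1* (-0.043) and *Dpy30* (-0.073) turned negative, as *Atf4* did, and without batch 3 these and *Mif* did.

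Promoters are shown because ATF4 is known to act on members that rose here as well as on members that did not. In the RefSeq promoter table (GRCm38.p6, 250 bases before to 50 after each start site), all 10 members matched, and the letters TGATGNAA, the core of the C/EBP-ATF response element, were searched on both strands. Of all 32851 promoters 1304 (3.97%) hold them, and of the 10 members 3 do: *Chac1*, *Asns* and *Trib3*, of which *Trib3* holds them 14 bases after its start. Of the 7 other genes called higher in the lists of stress genes and relatives above, *Nupr1* and *Slc7a11* hold them. Genes of the cell type markers were not searched. The stretches below surround the match, 5′ to 3′ on the strand of the gene, with the match in capitals. They are chr2:119351023-119351082 (plus strand) for *Chac1*, chr6:7693210-7693258 (minus strand) for *Asns*, chr7:126625547-126625606 (minus strand) for *Nupr1* and chr3:50443646-50443705 (minus strand) for *Slc7a11*.
Chac1: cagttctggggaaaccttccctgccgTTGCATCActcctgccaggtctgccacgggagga
Asns: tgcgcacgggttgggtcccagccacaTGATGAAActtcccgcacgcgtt
Nupr1: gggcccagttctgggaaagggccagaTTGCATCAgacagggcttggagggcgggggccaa
Slc7a11: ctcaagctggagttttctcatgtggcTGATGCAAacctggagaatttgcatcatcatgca

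In *Chac1* the match starts at position -193 from the start site and in *Nupr1* at -110, both on the opposite strand, so the letters appear reversed and complemented. In *Asns* it starts at -23 and in *Slc7a11* at -66, both on the strand of the gene, and *Slc7a11* holds another at -47 on the opposite strand, in lower case within the printed stretch. So these letters lie before the start of *Chac1*, *Nupr1* and *Slc7a11*, which rose, and of *Asns*, which did not pass, while the promoters of *Ddit3* and *Ddit4*, which rose, do not hold them in this window. A match is a description of letters and not a site of binding.

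Genes of cycling cells moved with the condition in the same libraries. Of 19 tested, 16 were lower in iASPP-KO, beside 1.95% of all tested genes. The median log2 fold change was -1.15 (-1.21, -1.07 and -0.86 within batches). All 19 were lower in all 3 batches, beside 19.7% of all tested genes. edgeR called 0 higher, with 0 higher at an unadjusted p under 0.05, and DESeq2 called 0 higher and 17 lower. Their summed level was 439, 423 and 1128 CPM of the library totals in iASPP-KO and 991, 798 and 2119 CPM in iASPP-WT, and none was at 0. *Top2a*, the topoisomerase gene of dividing cells, had the highest mean over the 6 libraries, but *Rrm2*, the gene of a nucleotide-making enzyme, was above it in the iASPP-KO libraries of batches 1 and 2, as was the replication clamp gene *Pcna* in that of batch 2. *Mki67*, the proliferation marker gene, and *Mcm6*, a gene of the replicative helicase, fell, with log2 fold changes of -1.37 and -1.19 and adjusted p of 0.00265 and 0.00109 in edgeR's quasi-likelihood test after Benjamini-Hochberg correction. Batch 3 had the highest sums in both conditions. Without batch 1 and without batch 2, 11 of the list were called lower, beside 151 of 15437 and 117 of 15236 tested genes. Without batch 3, 17 of the list were, beside 662 of 15261. The part of cycling cells in the values of the members was not tested.

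**Figure D5:**
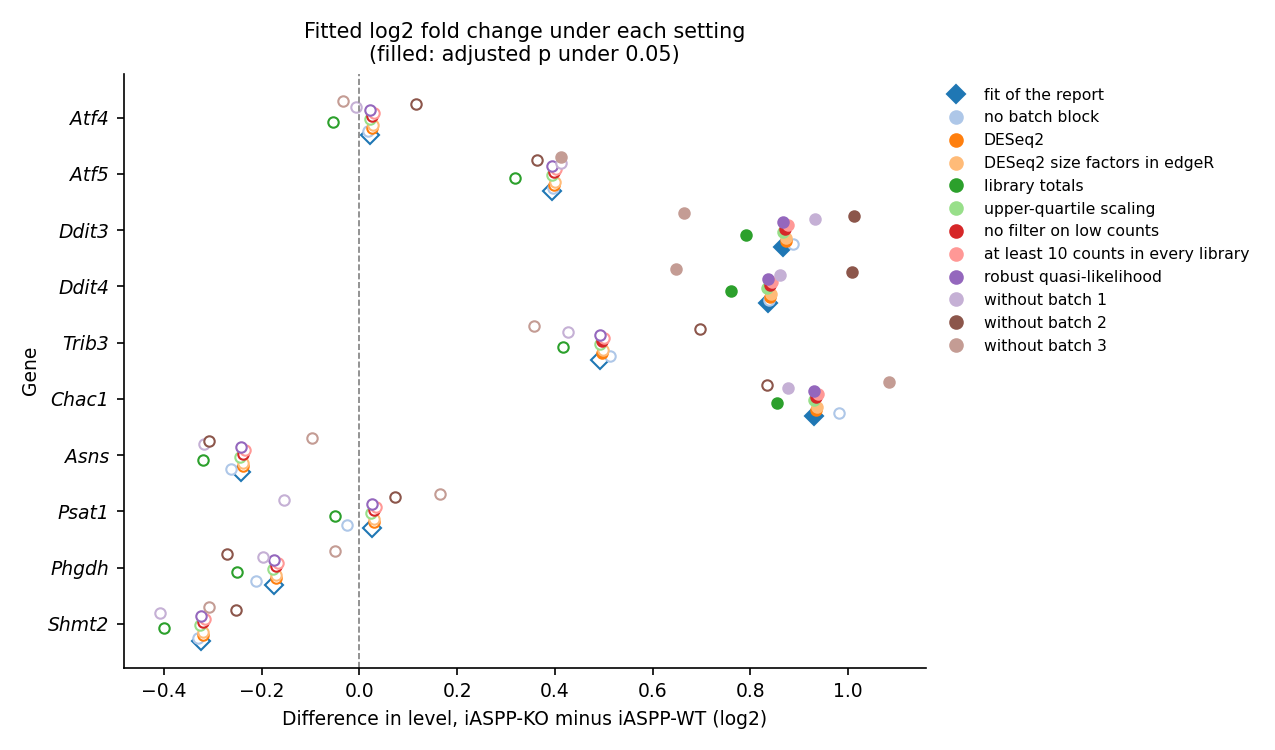
Log2 fold change of iASPP-KO over iASPP-WT (horizontal axis) of each member in the fit used here (diamond) and in 11 alternatives (circles), filled where the adjusted p was under 0.05. *Ddit3* runs from 0.66 to 1.01 and *Ddit4* from 0.65 to 1.01, both filled in all but the fit with no batch block, *Chac1* runs from 0.83 to 1.08, and *Atf4* and *Psat1* lie on both sides of 0, below it with library totals.

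These calls rest on the pairing of libraries by batch. With no batch block in the model, edgeR called 0 genes higher and 0 lower, with 360 and 331 at an unadjusted p under 0.05, of which 3 were members, and the DESeq2 fit, which kept the block, called 480 and 407. The log2 fold changes of *Ddit3*, *Ddit4* and *Chac1* in the fit with no block were 0.89, 0.84 and 0.98.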

How the data were processed

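RNA was measured in 6 libraries of primary mouse keratinocytes, 3 iASPP-KO and 3 iASPP-WT, grouped and paired by the labels. The authors checked reads with FastQC 0.11.9, trimmed adapters with Cutadapt 2.10, aligned to GRCm38 (mm10) with STAR 2.7.3 and deposited, for each gene name, the raw count of reads on its exons and strand (featureCounts 2.0.0). The recorded command has no option to count reads with several placements. The deposited table of differential expression, with the authors' own fold changes and p-values, was not used.

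The counts were tested here with edgeR 4.0.16 (R 4.3.3). Low counts were filtered by filterByExpr on the condition, libraries were scaled by TMM, and the quasi-likelihood test was run with batch and condition in the model, with Benjamini-Hochberg adjustment over 14916 genes and a threshold of 0.05. The standard error is the absolute log2 fold change over the square root of F. Within-batch differences are of log2 CPM after a prior count of 2 was added. The block comes from the study's methods, which adjust for batch. Correlations of log2 CPM, centred by condition, were 0.302, 0.368 and 0.568 between libraries of a batch and -0.427 to 0.179 between batches. Library totals are given as the depth, and 3 counts were taken as the floor.

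The genes named are the members, *Ppp1r13l*, the list genes that passed or whose role the text needs, and the 5 genes most like *Atf4*. Members and lists were chosen with earlier results of these data known. Alternatives were no batch block, DESeq2 1.42.0, its size factors, library totals or upper-quartile scaling in edgeR, no filter on low counts, at least 10 counts in every library, a robust fit, and each batch left out. The steps were also run on simulated counts drawn from the means and dispersion of this fit. The known changes in them were larger than those fitted to any member, so that run does not test the calls of members. Windows of 42 bases were compared between transcripts to find shared sequence. Python 3.11.15, pandas 2.3.3, numpy 2.4.6 and matplotlib 3.10.9 made tables and figures.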

Additional observations from a re-analysis of the deposited data

How the results depend on the processing

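Over 11 alternatives, the 10 members gave 110 log2 fold changes, of which 97 kept their direction and their side of the threshold, 4 no longer passed, 3 newly passed and 6 turned sign. The sign turned for *Atf4* with library totals (-0.054) and without batch 1 or batch 3 (-0.034 to 0.12 over the batches left out), for *Psat1* with no batch block (-0.026), with library totals (-0.050) and without batch 1 (-0.15 to 0.16), and among the 37 other genes tried for *Mthfd2* without batch 3 (-0.020 to 0.48), *Trib1* without batch 1 (-0.026 to 0.53) and *Trib2* without batch 2 (-0.24 to 1.24). It also turned for *Dcn* with no block (0.026) and without batch 1 (-0.26 to 0.25), for *Cops8* and *Gnpnat1* with library totals (-0.058 and -0.043) and without batch 1 or batch 3 (-0.053 to 0.13 and -0.066 to 0.22), for *Dpy30* in these fits and with no block (-0.073 with totals, -0.018 with no block, -0.11 to 0.15) and for *Mif* without batch 3 (-0.090 to 0.33). The cause was not tested. With no batch block edgeR called 0 genes higher, 0 lower and 0 members (360 and 331 genes and 3 members at an unadjusted p under 0.05, and 480, 407 and 4 called by DESeq2 with the block), and *Ppp1r13l* had -1.38 and did not pass. With no filter 624 genes were called higher and 491 lower among 31932 tested, and with library totals 455 were lower and 295 higher. Leaving out a batch gave 169 to 793 genes higher, 117 to 662 lower, 2 to 4 members called, and -1.57 to -1.27 for *Ppp1r13l*, with fewer libraries in each fit. The other scalings moved the median of all genes by -0.076 to 0.0057 (log2). Depth limits *Gdf15*, with 0 counts in a library, more than the members.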
